A study of Homo sapiens with 6 samples.

Results

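Chondroitin sulfate proteoglycans and the proteins that tie them to hyaluronan were followed across H1-derived astrocytes of 2 regional characters. The 10 genes were taken by name: the lecticans VCAN, NCAN, BCAN and ACAN, the transmembrane proteoglycan CSPG5, the small leucine-rich proteoglycans BGN, DCN and LUM, the link protein HAPLN1 and the hyaluronan receptor CD44. All 10 had reads in at least 1 library, among 27439 genes with reads. Of these 10 genes, 9 were expressed highly enough to be tested, among 15984 tested genes, and HAPLN1 was not.

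H1 is an established human embryonic stem cell line, and the 6 libraries come from this line alone. The groups are control astrocytes with a forebrain character and astrocytes with a ventral midbrain character, each with 3 libraries numbered 2, 3 and 4. The labels give no treatment, time or age, and their cell type field names the embryonic stem cell while the source field names the astrocyte. Polyadenylated RNA was read with QuantSeq 3' end libraries, in which a read marks the end of a transcript. Nothing in the labels says that the libraries are separate cultures, so p-values cover only the spread among these samples, which may be technical.

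Proteoglycans are secreted or membrane proteins that carry long sulfated sugar chains. In the brain the lecticans bind hyaluronan, a very long unsulfated sugar polymer, with one end and tenascins with the other, and link proteins lock the lectican to the hyaluronan. This mesh fills the space between cells, condenses into nets around some neurons, and is known to hinder axon growth after injury, when astrocytes produce more of it. Small leucine-rich proteoglycans belong instead to collagen-rich matrix, such as that of the meninges and vessel walls.

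The libraries held 11617935 to 15391082 estimated reads, of which mitochondrially encoded genes took 9.94% to 12.6%. Reads were found for 8 of 8 astrocyte markers, summing to 408 to 611 CPM (reads scaled to a common library size) in control and 375 to 816 CPM in ventral midbrain libraries. GFAP stood at 362 ± 96.4 and 371 ± 226 CPM (SD, n = 3), whereas ALDH1L1 and SLC1A2 were low, at 1.07 ± 0.873 and 2.56 ± 0.946 CPM in control libraries (SD, n = 3). Markers of pluripotent cells summed to at most 8.70 CPM and those of microglia to at most 0.908 CPM in any library.

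Without the replicate block and with the filter on low counts, BGN was the only member to pass, 3.79-fold lower in ventral midbrain libraries. VCAN and CD44, both at lower means in ventral midbrain libraries, passed as well with the replicate number as a block. At a Benjamini-Hochberg adjusted p under 0.05 in edgeR's quasi-likelihood test, 1 of the 9 tested members passed, beside 2.15% of all tested genes and 1.09% in the direction of BGN. Libraries of the groups did not overlap in 4 of 9 (BGN, DCN, LUM and NCAN), beside 17.9% of all tested genes, and 5 of 9 had an unadjusted p under 0.05, beside 12.0%. Fold changes, always ventral midbrain minus control, were positive in 5 and negative in 4, with a median of 0.22 against 0.01 for all tested genes on the log2 scale. DCN and LUM entered the test only through their ventral midbrain libraries, where they were higher, so these counts and this median do not stand for all 10 genes. With the replicate number as a block, 3 of 9 passed (BGN, VCAN and CD44, all lower), beside 8.13% of all genes and 4.5% in that direction. DESeq2 passed 1 of 9 and limma voom 1 of 9, beside 4.69% and 1.64% of all genes. Without a filter on low counts 5 of 10 passed, beside 3.69% of 27439 genes. Those genes include all that fall below the filter, whereas every member but HAPLN1 lies above it, so the 2 shares cover unlike sets. Where a blocked value is given below, it comes from the fit with the replicate number as a block.

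**Figure D1:**
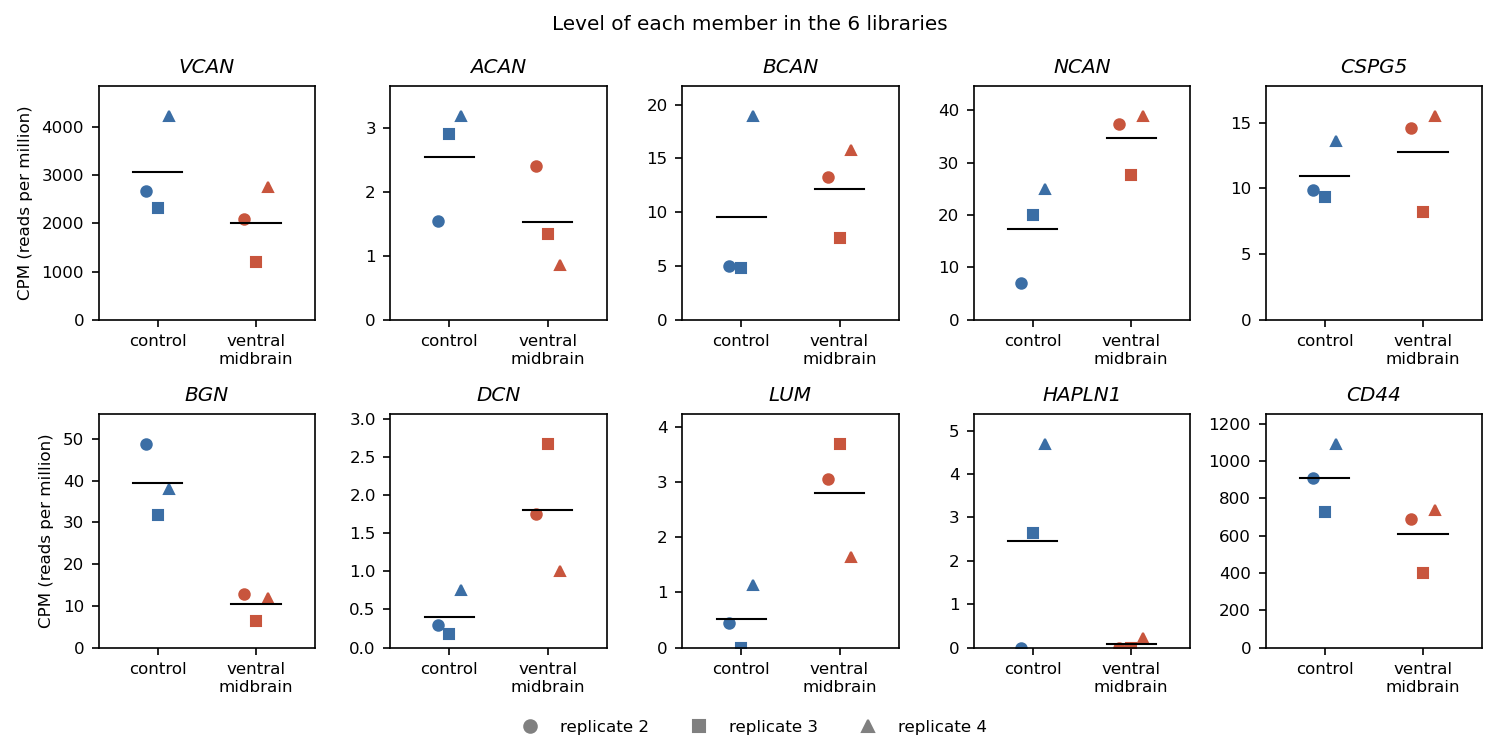
CPM of each of the 10 genes in the 6 libraries (control blue, ventral midbrain red, marker shape by replicate number, bar at the group mean, a separate linear axis from 0 for each gene). BGN falls from 31.7 to 48.7 CPM in control to 6.43 to 12.7 CPM in ventral midbrain libraries, whereas the VCAN and CD44 libraries of the groups overlap.

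**Figure D2:**
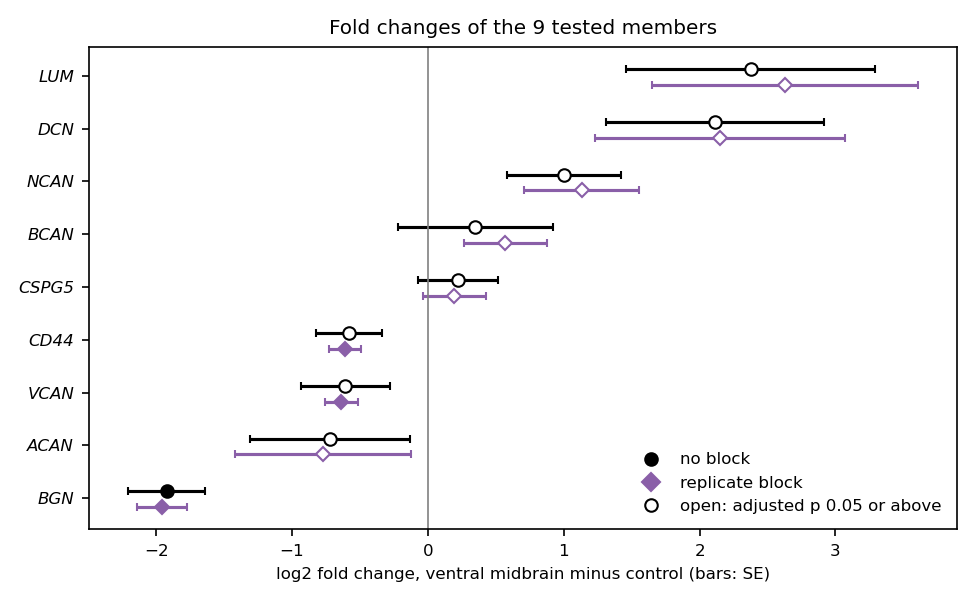
Log2 fold change of each tested gene, ventral midbrain minus control, with its standard error, without (black) and with (purple) the replicate number as a block, filled where the adjusted p is under 0.05. BGN is filled in both fits, and VCAN and CD44 only with the block, where their fold changes are -0.64 and -0.61.

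Across the 10 genes the levels spanned several orders of magnitude. Compared per transcript length, as TPM, VCAN led with 222 ± 46.9 TPM in control and 161 ± 68.1 TPM in ventral midbrain libraries (SD, n = 3). CD44 followed with 167 ± 38.2 and 128 ± 58.6 TPM (SD, n = 3), and the ranges of VCAN and CD44 overlapped in both groups. BGN came next in control libraries at 15.7 ± 2.86 TPM (SD, n = 3), clear of the genes above and below it. Below it CSPG5 (2.84 ± 0.450 TPM), BCAN (2.72 ± 2.21 TPM), NCAN (1.35 ± 0.749 TPM) and ACAN (1.20 ± 0.497 TPM) formed a run in which each overlapped the next (SD, n = 3). HAPLN1, DCN and LUM lay under 0.3 TPM in every control library and overlapped each other. In ventral midbrain libraries BGN, at 4.57 ± 1.98 TPM, overlapped BCAN (4.42 ± 2.39 TPM), CSPG5 (3.59 ± 1.43 TPM) and NCAN (2.85 ± 0.859 TPM) (SD, n = 3). DCN (0.727 ± 0.253 TPM), ACAN (0.638 ± 0.432 TPM) and LUM (0.392 ± 0.144 TPM) overlapped each other below these, and HAPLN1 was last at 0.00529 ± 0.00917 TPM (SD, n = 3). TPM divides by transcript length although a 3' end library reads each transcript once, so this order depends on the length used, and CPM is used for every comparison of 1 gene between groups.

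BGN encodes biglycan, a small collagen-binding proteoglycan with chondroitin or dermatan sulfate chains. It lies on chromosome X, 153494939 to 153509554 (GRCh38). BGN was at 48.7, 31.7 and 37.9 CPM in control replicates 2, 3 and 4 and at 12.7, 6.43 and 12.0 CPM in the ventral midbrain replicates. Every ventral midbrain library was below every control library, with replicate 3 the lowest of each group. The means were 39.5 ± 8.59 and 10.4 ± 3.44 CPM (SD, n = 3), and the log2 fold change was -1.92 ± 0.28 (SE; edgeR adjusted p = 0.0067). Whichever 1 of the 6 libraries was left out it passed, with edgeR adjusted p between 0.0097 and 0.036. In a bulk sample fewer cells of a type and less RNA per cell cannot be told apart. Mesenchymal and fibroblast marker genes also had a lower sum in ventral midbrain libraries, 735 to 943 CPM against 1249 to 1953 CPM in control. Of 11 tested markers 4 passed as lower, beside 1.09% of all tested genes, none passed as higher, and TCF21 was at 0. COL1A1, the main chain of type I collagen, was the highest of these markers, at 910 ± 213 and 277 ± 38.4 CPM (SD, n = 3; adjusted p = 0.0037 by edgeR). The difference in the marker sum therefore rests largely on COL1A1. The part of such cells in the BGN difference was not tested.

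All BGN reads were given to BGN-203, annotated as a processed transcript, and 3 annotated transcripts share its end at position 153509546, so the reads cannot tell them apart. HAUS7, on the opposite strand, overlaps BGN and held 769 reads over all libraries, at 10.7 ± 3.11 and 8.68 ± 1.87 CPM (SD, n = 3; adjusted p = 0.80 by edgeR). The sources used here do not say whether reads were counted by strand. The BGN promoter is printed because BGN is the member that passed the test. It covers 250 bases before to 50 after the RefSeq start of the gene (GRCh38.p14, chrX:153494730-153495029, plus strand), with motif matches in capitals. That start lies downstream of the gene start given above, which comes from another annotation (GENCODE).
BGN: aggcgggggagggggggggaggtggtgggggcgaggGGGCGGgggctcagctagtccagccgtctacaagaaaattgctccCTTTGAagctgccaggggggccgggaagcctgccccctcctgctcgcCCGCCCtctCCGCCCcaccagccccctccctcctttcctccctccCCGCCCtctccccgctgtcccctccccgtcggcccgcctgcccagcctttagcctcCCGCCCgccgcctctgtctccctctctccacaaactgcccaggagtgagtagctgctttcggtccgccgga
The letters searched on both strands were the TATA box as TATAAA, the GC box as GGGCGG, the AP-1 motif as TGANTCA, the NF-Y motif as CCAAT, the TEAD motif as GGAATG and the LEF/TCF motif as CTTTGA. The window holds 5 GC boxes and 1 LEF/TCF match, none overlapping another. Of 35116 promoter windows of the same 300 bases, 45.0% hold a GC box and 12.9% a LEF/TCF match. A match describes the letters and is not evidence of binding.

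DCN and LUM, neighbours on chromosome 12, were higher in every ventral midbrain than in every control library but did not pass the test. DCN encodes decorin, a collagen-binding proteoglycan close to biglycan in sequence, and occupies positions 91140484 to 91183123 on the minus strand. LUM encodes lumican, whose chains are keratan sulfate, and lies 28.7 kb away on the same strand, from 91102629 to 91111831. DCN was at 0.293, 0.171 and 0.756 CPM in control replicates 2, 3 and 4 and at 1.76, 2.67 and 1.0 CPM in the ventral midbrain replicates. LUM was at 0.439, 0 and 1.13 CPM in the control and 3.06, 3.69 and 1.65 CPM in the ventral midbrain libraries. The groups did not overlap for either gene, and in both genes control replicate 4 was the highest control and ventral midbrain replicate 4 the lowest ventral midbrain library. The log2 fold changes were 2.11 ± 0.80 for DCN (SE; edgeR adjusted p = 0.29) and 2.37 ± 0.92 for LUM (SE; edgeR adjusted p = 0.30). Without control replicate 4 they were 2.89 and 3.55, and neither gene passed when any 1 library was left out (edgeR adjusted p from 0.29 to 0.70 for DCN and from 0.24 to 0.61 for LUM). DCN was at 2.80 with the deposited normalized values and 3.23 with an offset for gene length, and LUM at 3.12 with limma voom, none of which passed. These levels rest on few reads, 4, 2 and 10 against 27, 34 and 14 for DCN and 6, 0 and 15 against 47, 47 and 23 for LUM. The 0 of LUM in control replicate 3 allows up to 0.257 CPM at that depth (3 reads, counting error only). All 10 DCN reads of control replicate 4 were given to DCN-201, while DCN-204 and DCN-202, which share another end, held 85.7% of DCN reads over all libraries. Fibroblasts are known for both genes, and the mesenchymal marker sum given for BGN was lower in the ventral midbrain libraries. The part of such cells in these levels was not tested.

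The 3 small proteoglycans also made up different shares of their sum. BGN held 98.5%, 99.5% and 95.2% of their summed reads in control replicates 2, 3 and 4 and 72.6%, 50.3% and 81.9% in the ventral midbrain replicates. Every control library stood above every ventral midbrain library, and the spread was wider in the latter, with means of 97.7% ± 2.21 and 68.3% ± 16.2 (SD, n = 3). DCN went from 1.01% ± 0.773 to 12.6% ± 7.34 and LUM from 1.25% ± 1.46 to 19.2% ± 8.91 (SD, n = 3). The sums behind these shares were 676, 373 and 526 reads in control and 270, 163 and 204 reads in ventral midbrain libraries. No test was run on the shares, since the level of BGN enters them.

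**Figure D3:**
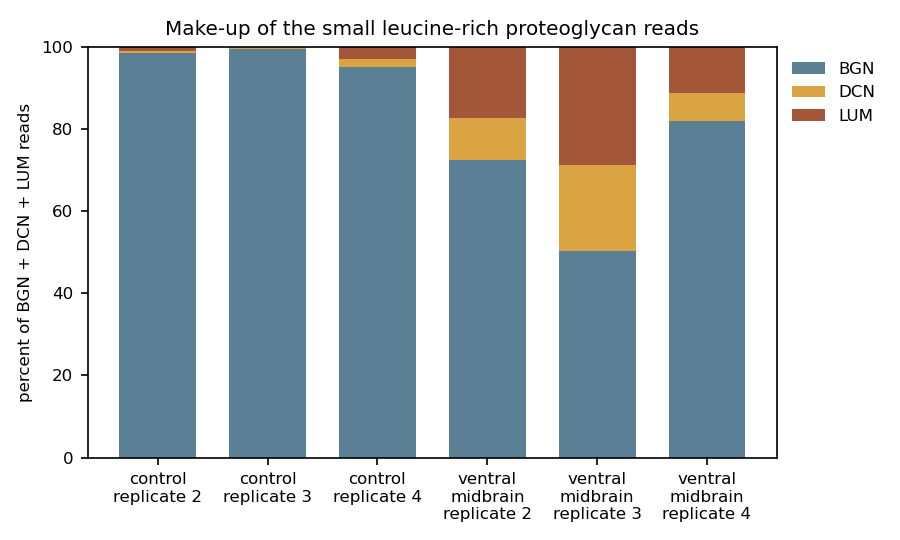
Share of BGN, DCN and LUM, in percent of their summed reads, in each of the 6 libraries. BGN takes 95.2% to 99.5% in the control libraries and 50.3% to 81.9% in the ventral midbrain libraries.

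Across the 6 libraries, the protein-coding genes whose centred log2(CPM + 0.5) profile lay nearest to that of BGN, among 11272 with a mean of at least 4 CPM, were AOX1, FZD5 and DDIT4L. The root mean square differences from BGN were 0.207, 0.217 and 0.222 on the log2 scale. AOX1, an aldehyde oxidase, went from 32.4 ± 11.7 to 7.65 ± 3.13 CPM, and FZD5, a Wnt receptor, from 14.9 ± 5.99 to 3.34 ± 1.29 CPM (SD, n = 3). DDIT4L went from 46.2 ± 4.59 to 10.5 ± 4.33 CPM (SD, n = 3).

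VCAN encodes versican, a large hyaluronan-binding lectican that is widespread in developing brain. It was the most abundant of the 10 genes and ranked 30 among all genes by mean CPM in control and 39 in ventral midbrain libraries. VCAN (chromosome 5, 83471465 to 83582303) was at 2670, 2311 and 4213 CPM in control replicates 2, 3 and 4 and at 2079, 1204 and 2753 CPM in the ventral midbrain replicates. The groups overlapped, but the ventral midbrain library was lower than the control library of its number each time, by log2 ratios of -0.36, -0.94 and -0.61. The means were 3065 ± 1010 and 2012 ± 776 CPM (SD, n = 3), and the log2 fold change was -0.61 ± 0.33 (SE; edgeR adjusted p = 0.54). With the replicate number as a block the log2 fold change was -0.64 ± 0.12 (SE; edgeR adjusted p = 0.0045), and without a filter on low counts the adjusted p was 0.037. Replicate 3, the lowest VCAN library of each group, was also the highest in summed markers of cycling cells, at 2832 CPM against 784 and 761 CPM in control and 4296 CPM against 1154 and 1064 CPM in ventral midbrain libraries. None of the 6 cycling markers passed the test between groups, and their part in the VCAN level was not tested.

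VCAN makes several forms that differ in the chain-bearing exons. The annotated forms VCAN-201, VCAN-202 and VCAN-203 all end at position 83582303. That end took 73.1% ± 3.07 of VCAN reads in control and 75.4% ± 0.417 in ventral midbrain libraries (SD, n = 3; two-sided exact permutation test, p = 0.2), a difference that did not pass. Salmon divided those reads between VCAN-201 (16.2% and 17.1%), VCAN-202 (23.4% and 24.0%) and VCAN-203 (33.6% and 34.3%), but reads at a shared end cannot separate them. VCAN-210 took another 26.1% ± 2.83 and 23.5% ± 0.538 (SD, n = 3). Its annotated end, position 83539684, lies inside exon 8 of 15 of VCAN-201, a coding exon of 5262 bases from 83537007 to 83542268 that VCAN-203 also holds and VCAN-202 lacks. The sequence around that end is printed because 24.7% of the reads of the most abundant member were placed there. It covers chr5:83539655-83539714 (plus strand, GRCh38), with the 14 bases that follow the annotated end in capitals.
VCAN-210 end: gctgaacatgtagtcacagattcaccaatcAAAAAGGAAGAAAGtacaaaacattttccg
Of those 14 bases 10 are A, and 0.714% of the 12612 windows of that length in VCAN-201 are at least as rich in A. The site was picked from these reads, so that percentage is a description only. Whether the reads placed there mark a true transcript end was not tested. Without the reads given to VCAN-210 the VCAN fold change was -0.57 (edgeR adjusted p = 0.61).

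The VCAN promoter is shown with that of CD44, because these were the abundant members whose same-numbered libraries differed in 1 direction (RefSeq, GRCh38.p14, both on the plus strand, chr5:83471494-83471793 and chr11:35138921-35139220), with motif matches in capitals. Both windows are placed by the RefSeq start and lie inside the gene positions printed here for VCAN and CD44.
VCAN: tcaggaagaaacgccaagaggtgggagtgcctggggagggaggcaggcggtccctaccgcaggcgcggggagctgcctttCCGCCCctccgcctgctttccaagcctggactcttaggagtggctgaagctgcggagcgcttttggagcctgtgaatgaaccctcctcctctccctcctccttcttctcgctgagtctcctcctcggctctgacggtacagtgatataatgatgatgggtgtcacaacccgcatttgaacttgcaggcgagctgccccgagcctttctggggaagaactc
CD44: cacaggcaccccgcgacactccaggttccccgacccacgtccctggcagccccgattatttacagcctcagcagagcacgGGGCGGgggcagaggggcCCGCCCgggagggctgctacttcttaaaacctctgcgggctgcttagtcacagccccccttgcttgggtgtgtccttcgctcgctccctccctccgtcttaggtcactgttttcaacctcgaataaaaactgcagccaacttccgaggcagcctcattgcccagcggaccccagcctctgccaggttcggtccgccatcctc
VCAN holds 1 GC box and CD44 holds 2 of them, and none of the other 5 motifs named for BGN is in these letters. The share of G and C was 60.3% in VCAN and 63.3% in CD44, against 71.7% in the BGN window.

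NCAN encodes neurocan, a lectican of the nervous system made by neurons and glia. NCAN (chromosome 19, 19211973 to 19252233) was at 6.95, 19.9 and 25.0 CPM in control replicates 2, 3 and 4 and at 37.4, 27.7 and 38.8 CPM in the ventral midbrain replicates. All ventral midbrain libraries were above all control libraries, and control replicate 2 was the lowest by a wide margin. The log2 fold change was 1.0 ± 0.42 (SE; unadjusted p = 0.045, edgeR adjusted p = 0.40), so the difference did not pass, although it did without a filter on low counts (edgeR adjusted p = 0.00077). Of 8 tested astrocyte markers 2 passed, beside 2.15% of all tested genes, and both were higher. They were AQP4, from 3.86 ± 2.25 to 30.5 ± 17.2 CPM (SD, n = 3; adjusted p = 0.048 by edgeR), and SLC1A3, from 35.4 ± 11.3 to 94.4 ± 26.7 CPM (SD, n = 3; adjusted p = 0.034 by edgeR). The summed astrocyte markers overlapped between the groups, at 408 to 611 CPM in control and 375 to 816 CPM in ventral midbrain libraries. Neuron markers summed to 1316 to 2041 CPM in control and 848 to 1242 CPM in ventral midbrain libraries, and 0 of 7 tested passed. The part of either cell type in the NCAN level was not tested. NCAN took 0.566% ± 0.297 of lectican reads in control and 1.79% ± 0.425 in ventral midbrain libraries (SD, n = 3), a share for which no test was run. VCAN held 99.1% ± 0.371 and 97.5% ± 0.489 of those reads (SD, n = 3).

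BCAN encodes brevican, a brain lectican of glia and of mature perineuronal nets. BCAN (chromosome 1, 156641390 to 156659532) was at 5.05, 4.79 and 18.9 CPM in control replicates 2, 3 and 4 and at 13.3, 7.61 and 15.8 CPM in the ventral midbrain replicates. Control replicate 4 was the highest of all 6 libraries and the groups overlapped. The log2 fold change was 0.35 ± 0.57 (SE; edgeR adjusted p = 0.90), and without control replicate 4 it was 1.31 (edgeR adjusted p = 0.21). Salmon gave the reads at the end at position 156659532 to the retained-intron form BCAN-208. As 2 annotated transcripts share that end, the reads cannot tell them apart. That end took 65.2%, 58.9% and 61.2% of BCAN reads in control and 52.5%, 42.3% and 53.2% in ventral midbrain libraries. The groups did not overlap, and the means of 61.8% ± 3.18 and 49.3% ± 6.10 differed by -12.5 points (SD, n = 3; two-sided exact permutation test, p = 0.1, the smallest that 3 against 3 libraries allow). The remaining reads were split between BCAN-202 and BCAN-206 in proportions that varied from library to library.

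ACAN encodes aggrecan, the lectican of cartilage and of the nets around neurons. ACAN (chromosome 15, 88803442 to 88875354) was at 1.54, 2.91 and 3.18 CPM in control replicates 2, 3 and 4 and at 2.41, 1.33 and 0.859 CPM in the ventral midbrain replicates. The groups overlapped, and no library held more than 42 reads. The log2 fold change was -0.72 ± 0.59 (SE; edgeR adjusted p = 0.73). Cartilage markers summed to 320 to 440 CPM in control and 153 to 180 CPM in ventral midbrain libraries. Of 10 tested, 2 fell, beside 1.09% of all tested genes, and none was at 0 throughout. COL2A1, the defining cartilage collagen, was at 1.84 ± 0.772 and 3.91 ± 2.89 CPM (SD, n = 3; adjusted p = 0.58 by edgeR). The part of these markers in the ACAN level was not tested.

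CSPG5 encodes neuroglycan C, a membrane-spanning proteoglycan of neurons and glia with an extracellular domain related to epidermal growth factor. CSPG5 (chromosome 3, 47562239 to 47580792) was at 9.88, 9.33 and 13.6 CPM in control replicates 2, 3 and 4 and at 14.6, 8.23 and 15.5 CPM in the ventral midbrain replicates. Replicate 3 was the lowest of each group, and the groups overlapped. The log2 fold change was 0.22 ± 0.29 (SE; edgeR adjusted p = 0.86). All of its reads were given to CSPG5-201, but 4 annotated transcripts share that end, so the reads cannot tell them apart.

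HAPLN1 encodes the link protein that fastens lecticans to hyaluronan, and on chromosome 5 (83637805 to 83721613) it lies 55.5 kb from VCAN on the opposite strand. It had 0, 31 and 62 reads in control replicates 2, 3 and 4 and 0, 0 and 3 reads in the ventral midbrain replicates, which is 0, 2.65 and 4.69 CPM against 0, 0 and 0.215 CPM. Reads were thus nearly confined to 2 control libraries, and control replicate 2 was as empty as the ventral midbrain libraries. The 0 values allow up to 0.219 CPM in control replicate 2 and up to 0.195 and 0.235 CPM in ventral midbrain replicates 2 and 3 (3 reads, counting error only). Pooled over each group, 93 reads against 3, each divided by the summed scaled library size of its group, gave a ratio of 33.8 with an exact 95% interval of 11.2 to 167 that covers counting error only and not the spread between libraries. HAPLN1 did not reach the filter on low counts. Without that filter its fitted log2 fold change was -4.91 (edgeR adjusted p = 0.00032), a value that depends on the prior count.

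Each of the other lecticans also has a link protein gene beside it, and these did not pass the test where they could be tested. HAPLN3 lies 1.93 kb from ACAN and stood at 11.9 ± 3.93 and 11.1 ± 3.10 CPM (SD, n = 3; adjusted p = 0.95 by edgeR). HAPLN4 lies 3.41 kb from NCAN and stood at 5.35 ± 2.79 and 3.83 ± 2.63 CPM (SD, n = 3; adjusted p = 0.85 by edgeR). HAPLN2, 15.7 kb from BCAN, had 1 read in all libraries together. HAPLN3 was thus the link protein gene with the highest mean CPM in both groups, and 3' end counts per gene were not divided by length in that statement.

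CD44 encodes the main cell surface receptor for hyaluronan, which marks astrocyte progenitors and reactive astrocytes among other cells. CD44 (chromosome 11, 35138870 to 35232402) was at 910, 726 and 1090 CPM in control replicates 2, 3 and 4 and at 689, 400 and 735 CPM in the ventral midbrain replicates. The groups overlapped by a narrow margin, since ventral midbrain replicate 4 was just above control replicate 3, and each ventral midbrain library was lower than the control library of its number, by log2 ratios of -0.40, -0.86 and -0.57. The means were 909 ± 182 and 608 ± 182 CPM (SD, n = 3), and the log2 fold change was -0.58 ± 0.24 (SE; unadjusted p = 0.039, edgeR adjusted p = 0.37). With the replicate number as a block it was -0.61 ± 0.12 (SE; edgeR adjusted p = 0.0045), and without a filter on low counts the adjusted p was 0.041. As for VCAN, replicate 3 was the lowest of each group and the highest in cycling markers. CD44-201 took 85.9% ± 3.88 of the reads in control and 86.5% ± 3.81 in ventral midbrain libraries (SD, n = 3), CD44-218 took 8.78% and 7.59%, and CD44-230 took 3.94% and 4.71%. The end of CD44-201 is shared by 2 annotated transcripts, which the reads cannot tell apart. AL133330.1, a sense transcript within an intron of CD44, held 675 reads over all libraries, and reads shared with it would be divided by Salmon.

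The machinery around these proteins was read from 8 lists of 107 other genes, of which 98 had reads and 84 were tested. Of the 84 genes 2 rose, 3 fell and 79 did not pass edgeR's test, so that 5 of 84 passed beside 2.15% of all genes. With the replicate block 6 were higher and 9 lower, beside 8.13% of all genes called in either direction. For the 84 genes the median log2 fold change was 0.00 against 0.01 for all tested genes. Of the 15 tested genes that build the chondroitin chain only CHSY1 passed. CHSY1, an enzyme that polymerises the chain, was at 786, 685 and 771 CPM in control and 376, 265 and 314 CPM in ventral midbrain libraries. All ventral midbrain libraries were below all control libraries, and the log2 fold change was -1.23 ± 0.17 (SE; edgeR adjusted p = 0.0054). It passed whichever 1 library was left out, with a highest adjusted p of 0.034. Other enzymes of the list did not pass, among them CHPF, a partner in chain polymerisation, at 144 and 116 CPM (edgeR adjusted p = 0.47), and XYLT1, which starts the chain, at 27.4 and 16.2 CPM (edgeR adjusted p = 0.46). CSGALNACT2, which adds the first galactosamine, was at 16.6 and 25.7 CPM (edgeR adjusted p = 0.18, blocked 0.045). Of 13 tested genes of chain sulfation 1 rose: CHST3, a 6-O-sulfotransferase, went from 29.6 ± 3.61 to 54.0 ± 8.17 CPM (SD, n = 3), a log2 difference of 0.86 ± 0.18 (SE; adjusted p = 0.032 by edgeR). That call was lost without control replicate 2 or 4 or whichever 1 ventral midbrain library was left out (highest adjusted p = 0.15), and also with a gene-length offset or the deposited normalized values. SLC26A2, the sulfate transporter, was at 89.6 and 116 CPM (edgeR adjusted p = 0.41).

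Of the 13 tested matrix partners and chondroitin receptors, 1 rose and 2 fell, beside 2.15% of all tested genes called in either direction. TNR, tenascin-R, which binds lecticans in perineuronal nets, fell from 73.7 ± 25.1 to 8.46 ± 4.31 CPM (SD, n = 3), a log2 difference of -3.11 ± 0.48 (SE; adjusted p = 0.029 by edgeR). EGFR, the epidermal growth factor receptor, fell from 88.3 ± 9.01 to 53.0 ± 7.0 CPM (SD, n = 3; adjusted p = 0.045 by edgeR). MATN2, a matrilin of filamentous matrix, rose from 39.5 ± 7.16 to 76.8 ± 10.8 CPM (SD, n = 3; adjusted p = 0.023 by edgeR). TNR did not pass without control replicate 2 or 4 or ventral midbrain replicate 2 or 4 (highest adjusted p = 0.11), MATN2 without replicate 3 or 4 of either group (highest adjusted p = 0.11), and EGFR whichever 1 library was left out (highest adjusted p = 0.13). MATN2 and EGFR also did not pass with a gene-length offset or the deposited normalized values, and EGFR not with limma voom. COMP, a cartilage matrix protein, was at 15.5 and 5.66 CPM (edgeR adjusted p = 0.082, blocked 0.0045). PTPRF, of the phosphatase family that holds chondroitin receptors, was at 306 and 204 CPM (edgeR adjusted p = 0.55, blocked 0.0040). FN1, fibronectin, was the most abundant of the list at 1957 and 2121 CPM (edgeR adjusted p = 0.93).

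No gene of the remaining lists passed in the main fit, without the block and with the filter on low counts. Among 7 other small leucine-rich proteoglycans tested, PRELP had the smallest p. PRELP was at 2.92 ± 1.37 and 0.867 ± 0.458 CPM (SD, n = 3; adjusted p = 0.26 by edgeR, blocked 0.096). PODNL1 was at 3.40 ± 0.530 and 5.88 ± 1.32 CPM (SD, n = 3; adjusted p = 0.42 by edgeR, blocked 0.23). CHAD, chondroadherin, was at 33.5 ± 20.1 and 10.7 ± 10.1 CPM (SD, n = 3; adjusted p = 0.62 by edgeR, blocked 0.00046). Control and ventral midbrain ranges were separate for PRELP and PODNL1 but overlapped for CHAD. Among 6 other chondroitin sulfate proteoglycans, CSPG4, the NG2 proteoglycan of oligodendrocyte precursors and pericytes, was at 43.9 ± 14.2 and 21.8 ± 3.90 CPM (SD, n = 3; adjusted p = 0.068 by edgeR, blocked 0.0013). SPOCK1, testican, was at 138 ± 35.9 and 275 ± 82.3 CPM (SD, n = 3; adjusted p = 0.090 by edgeR, blocked 0.00061). DESeq2 called 2 of the 6 genes of that list, beside 4.69% of all tested genes. Markers of the oligodendrocyte lineage, CSPG4 among them, summed to 157 to 198 CPM in control and 114 to 133 CPM in ventral midbrain libraries. Of 4 tested, 1 fell, beside 1.09% of all tested genes, and SOX10 and GPR17 were at 0. Their part in the CSPG4 level was not tested. Among 11 tested genes of hyaluronan metabolism and binding, HAS2, a hyaluronan synthase, was at 154, 104 and 174 CPM in control and 99.3, 56.6 and 103 CPM in ventral midbrain libraries (edgeR adjusted p = 0.26, blocked 0.0011). With the block 1 gene of this list passed as higher and 1, HAS2, as lower, beside 8.13% of all tested genes in either direction. Of the 11 unblocked fold changes 8 were positive, with a median of 0.41 against 0.01 for all tested genes on the log2 scale. HYAL2, a hyaluronidase, stood at 40.3 and 54.5 CPM (edgeR adjusted p = 0.40). LAYN, a hyaluronan receptor, stood at 69.6 and 92.4 CPM (edgeR adjusted p = 0.41). Among 17 tested genes of core protein and chain breakdown, ADAMTS5, an aggrecanase, was at 3.88 and 0.952 CPM (edgeR adjusted p = 0.19, blocked 0.025). MMP14, a membrane metalloprotease, was at 291 and 395 CPM (edgeR adjusted p = 0.48, blocked 0.049).

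**Figure D4:**
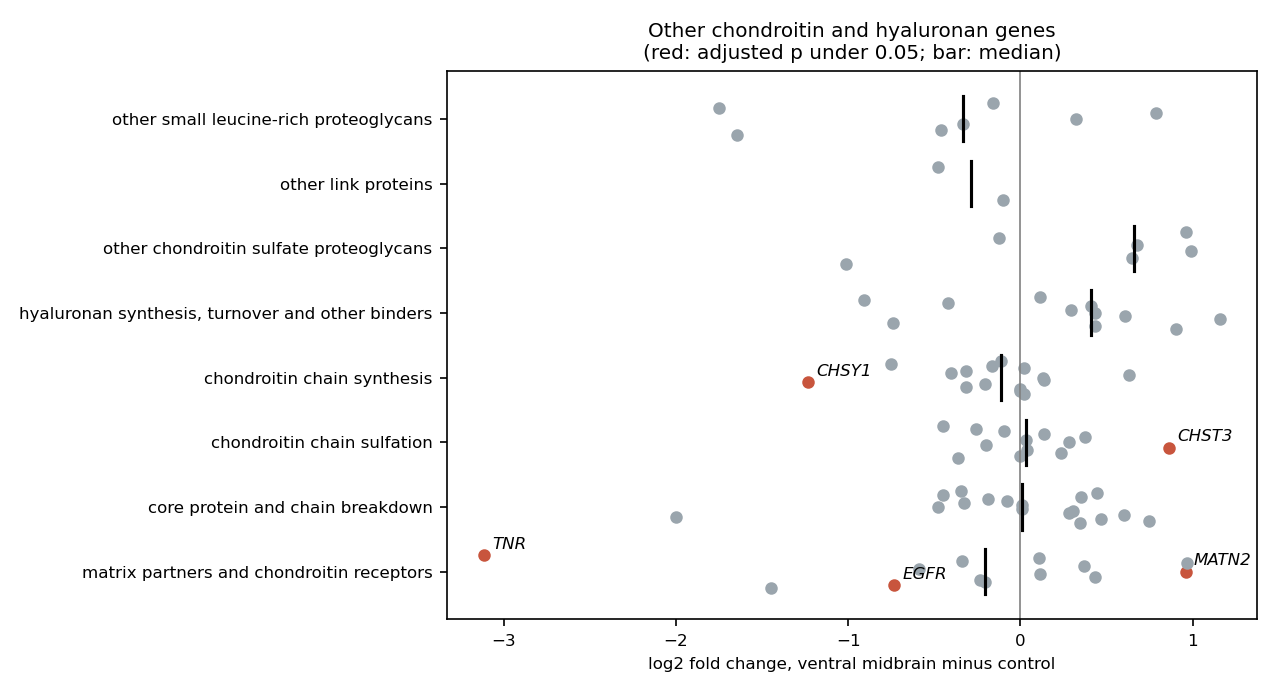
Log2 fold change, ventral midbrain minus control, of the 84 tested genes of the 8 lists (points, red where the adjusted p is under 0.05) with the median of each list (bar). CHSY1, TNR and EGFR lie below 0 and CHST3 and MATN2 above 0 among the red points, and the medians run from -0.33 to 0.66.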

How the data were processed

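RNA of 3 control and 3 ventral midbrain samples was read with 3' end libraries. Salmon (version not given), the build GRCh38.p13 and DESeq2 1.27.12 are named in the submitters' processing notes. For each transcript the authors deposited an estimated count, TPM, length and effective length from Salmon, and a deposited table gives a normalized gene signal. Columns of other samples numbered 0.

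Gene sums of the estimated counts were made with GENCODE (GRCh38), which matched 90.6% of 226608 transcripts, and rounded. Unmatched transcripts held 0.992% to 1.12% of reads. edgeR 4.0.16 in R 4.3.3 (quasi-likelihood, robust, filterByExpr, TMM, Benjamini-Hochberg over 15984 genes, no length factor) tested ventral midbrain against control, with a common biological coefficient of variation of 0.309. CPM uses TMM-scaled library sizes, and SE is the size of the log2 fold change over the root of the F statistic. DESeq2 1.42.0 and limma 3.58.1 were alternatives, as were other scalings, filters, a gene-length offset, the deposited signal on log2(value + 1), a stricter threshold, VCAN without the VCAN-210 reads (chosen after seeing the data) and leaving out each library. Transcript ends within 50 bases were merged, and an end was tested when 2 ends held 10% of the reads and every library had 50 reads. Figures used matplotlib 3.10.9.

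Members, lists and tests were chosen with earlier results of these data known. The text names all 10 members and, from each list, genes past the threshold, up to 3 further with the smallest p and the 2 highest, of which a selection is printed. For BGN the 3 nearest profiles are named. COL1A1, COL2A1, GFAP, ALDH1L1, SLC1A2, AQP4, SLC1A3 and HAUS7 were added after their values were seen. Deviations from the group means correlated at 0.308, 0.452 and 0.282 between same-numbered libraries and at most 0.0429 between others. Deviations within a group cancel out, so the correlations of same-numbered and other libraries are not independent, and both come from the data then tested. In the fit with a block the numbers were taken to pair the samples on these correlations, although no label says what same-numbered samples share. The main fit has no block, and calls come from it unless a block or another setting is named. On data simulated for this comparison with 15488 genes, recovery was 45% for 100 genes with a 2-fold change and 99% for 100 with a 4-fold change, all with a mean of at least 4 CPM, and 8 of 152 calls (5.26%) were false. The simulated libraries were independent, with a spread set by expression level alone and no replicate effect. These rates may therefore differ from those in the real libraries.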

Additional observations from a re-analysis of the deposited data

How the results depend on the processing

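The BGN fold change passed the test under every scaling, filter, tool, block, length offset and left-out library tried. Over these alternatives 129 values of the 9 tested members kept their direction and side of the threshold and 5 came to pass it (VCAN, CD44 and NCAN, given above with their settings). The number of members passing was 1 except without a low-count filter (5, HAPLN1 and NCAN included) and with the replicate block (3), which otherwise changed no member's call. Of all genes 344 passed, against 1012 without a filter, 1300 with the block, 750 with DESeq2, 173 with a gene-length offset, 191 with the deposited normalized values, 102 at an adjusted p under 0.01 and 131 (without control replicate 4) to 258 when 1 library was left out. The cause of these differences was not tested. The share of VCAN among the lecticans was 97.8% in control and 95.3% in ventral midbrain libraries when computed from TPM. Among the list genes 3 changed sign when 1 library was left out: HAPLN4 ranged from -1.08 to 0.0018 (without control replicate 4), HAPLN3 from -0.28 to 0.19 (without control replicate 4; 0.11 without ventral midbrain replicate 3) and FN1 from -0.13 (without ventral midbrain replicate 4; -0.055 without control replicate 3) to 0.34, none of them past the test. Depth limits DCN, LUM, ACAN and HAPLN1, whose libraries held few reads.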
